A study of Homo sapiens with 4 samples.

Results

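This report describes 10 long noncoding RNAs (lncRNAs) in AGS cells: LINC00657 (also called NORAD), MALAT1, NEAT1, H19, GAS5, SNHG1, SNHG5, SNHG8, TUG1 and URB1-AS1. They were chosen by name, LINC00657 because it was listed at 0 in both control libraries, and they were looked up among the 47251 genes of the deposited table, of which 15377 are lncRNA genes in GENCODE 29. Of the 10, 6 stood in the table by name, whereas H19, GAS5, SNHG1 and SNHG5 were found only by their Ensembl identifiers, in 4 rows without a gene name or any listed transcript. AGS is a human gastric adenocarcinoma cell line. RNA was sequenced from 2 libraries of cells carrying an shRNA, a short hairpin RNA, against MFAP2 (sh-MFAP2) and 2 libraries of cells carrying a control shRNA (control). Both shRNAs were delivered by lentivirus with a fluorescent reporter and cells were kept under puromycin, so resistance and viral infection were shared by all 4 libraries. Nothing in the labels says that replicates came from separate cultures, so p-values measure only the spread between these libraries, which may be technical.

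Long noncoding RNAs are transcripts, mostly made by RNA polymerase II, that do not serve as templates for a protein. Some act in the cytoplasm, such as LINC00657, which binds Pumilio proteins through many copies of a short sequence element. Others are nuclear, such as MALAT1 in nuclear speckles and NEAT1, the scaffold of paraspeckles. GAS5 and the SNHG genes are spliced host genes whose introns carry small nucleolar RNAs (snoRNAs), the guides for modification of ribosomal RNA.

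LINC00657 is a minus-strand gene of chromosome 20, positions 36045622 to 36050960 of GRCh38 in GENCODE 29, with 1 exon, 1 transcript of 5339 bases and no overlapping gene. The Pumilio element, TGTANATA with N for any base, was searched on the transcript strand only, with overlapping matches allowed. LINC00657 held 15 matches, 10 of them TGTATATA, 4 TGTAAATA and 1 TGTACATA. Among 4358 transcripts within 10% of its length, 42.9% held at least 1 match, the median was 0, and 3 (0.0688%) held 15 or more, LINC00657 included. The 6 windows of 30 bases shown here, with the match in capitals, were chosen to show each form and a pair of neighbouring matches in the lncRNA for which the set was drawn up:
LINC00657 site 1, chr20:36050182-36050211, minus strand: tggaaggcctgTGTATATAatatgaaaaag
LINC00657 site 2, chr20:36049803-36049832, minus strand: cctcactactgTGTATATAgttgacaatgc
LINC00657 site 4, chr20:36049501-36049530, minus strand: ttacttatctgTGTATATAgtgtacataaa
LINC00657 site 5, chr20:36049492-36049521, minus strand: tgtgtatatagTGTACATAaaggacagacg
LINC00657 site 6, chr20:36049118-36049147, minus strand: aaataccacttTGTAAATAtctttttgcta
LINC00657 site 11, chr20:36047971-36048000, minus strand: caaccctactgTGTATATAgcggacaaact
Sites 4 and 5 overlap in these windows. The leading transcript, that is the one with the highest mean value, held 6 matches in NEAT1 (22743 bases) and 2 in TUG1 (5017 bases in GENCODE 29, 5673 in the table), and no match of these letters was found in those of MALAT1, SNHG8 or URB1-AS1. At least 1 match was present in 64.3% of 28 transcripts of NEAT1's length and in 63.0% of 1273 of MALAT1's length. A match is a string of letters and was not tested as a binding site.

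Values are taken as FPKM, fragments scaled by transcript length and library depth, so levels can be set side by side between genes. The spacing of low values implied about 54600000 to 74600000 reads per library. Only 60.2% to 61.4% of low values lay within 0.05 of a whole step, so read numbers are approximate. By chance 10% would do so for a step fixed in advance, but here the step was fitted to the same values. MFAP2 had values of 0 under the shRNA and of 0.0116 and 0.0138 FPKM in the controls, too low to check the labels. Of the 6 epithelial markers, EPCAM, KRT8, KRT18 and KRT19 were above 1 FPKM throughout, with the list summing to 1732 to 1983 FPKM, whereas KRT7 stayed below 1 FPKM and CLDN4 was at 47.1 FPKM in sh-MFAP2 replicate 1 and at most 0.551 FPKM elsewhere. The 6 fibroblast markers summed to 2.12 to 2.34 FPKM under sh-MFAP2 and 4.39 to 4.96 FPKM in control, nearly all of it COL1A1, and the 5 leukocyte markers to 3.17 to 3.22 and 7.23 to 7.89 FPKM, nearly all of it CD68, with PTPRC at most 0.0175 FPKM. The 3 endothelial markers summed to at most 0.0380 FPKM. The part of these differences in the lncRNA values was not tested. In such bulk samples, fewer cells of a type and less RNA per cell cannot be told apart.

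LINC00657 was listed at 56.5 FPKM in sh-MFAP2 replicate 1, at 65.5 FPKM in replicate 2 and at 0 in both controls. The sh-MFAP2 mean was 61.0 ± 6.34 FPKM (SD, n = 2), a level exceeded by 5.66% and 4.97% of tested genes in the 2 libraries. At the implied depth these values stand for about 18316 and 19091 reads. LINC00657 was chosen for this pattern, so it is given as a description with no test and no fold change. No second transcript was listed for it.

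URB1-AS1, a lncRNA named for its position beside URB1, showed the mirror pattern at a much lower level. The sh-MFAP2 libraries listed it at 0, against 5.09 and 5.13 FPKM in control replicates 1 and 2, a mean of 5.11 ± 0.0263 FPKM (SD, n = 2). These values stand for about 250 and 318 reads. It lies on chromosome 21 from 32393130 to 32393960 on the plus strand and, like LINC00657, has 1 exon, 1 transcript (831 bases) and no overlapping gene. Because it was listed at 0 in a whole group and the reason for its choice is not stated, it is also given without a test.

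**Figure D1:**
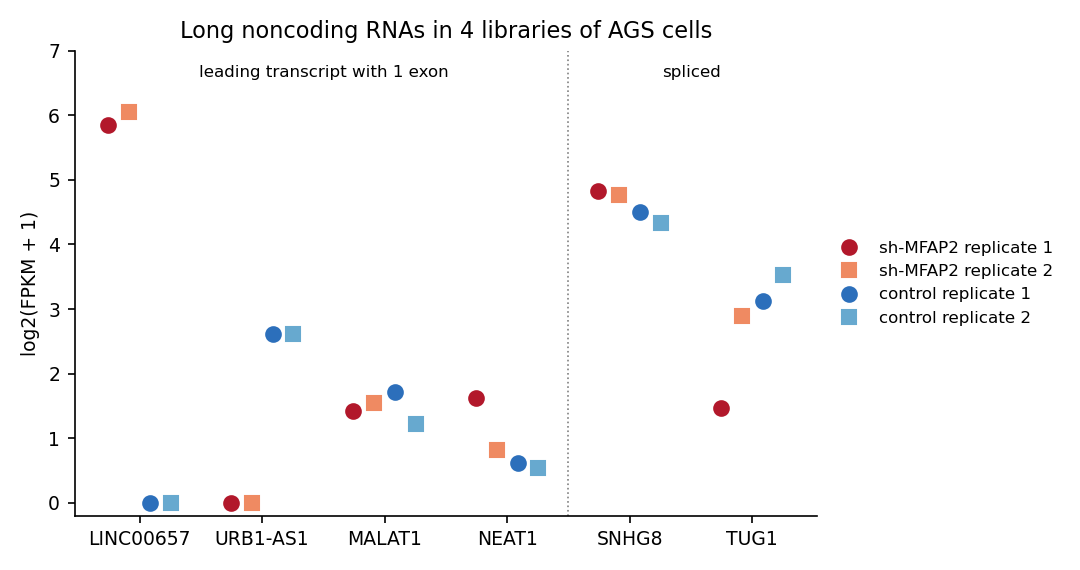
Level of the 6 lncRNAs listed by name, as log2(FPKM + 1) on the vertical axis, with 1 point per library (circles replicate 1, squares replicate 2; red shades sh-MFAP2, blue shades control). LINC00657 and URB1-AS1 each stand at 0 in a whole group, MALAT1 overlaps between groups, and TUG1 is lowest in sh-MFAP2 replicate 1.

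MALAT1 and NEAT1, the nuclear lncRNAs, are neighbours on the plus strand of chromosome 11 and also have a leading transcript of 1 exon. Neither was listed at 0 in a library, but both stayed under 5 FPKM, so a switch between 0 and a high level could not be judged. MALAT1 (65497688 to 65506516) was at 1.67 and 1.93 FPKM under sh-MFAP2 and at 2.28 and 1.33 FPKM in control. The highest and the lowest library were both controls, so the groups overlapped. Its log2 fold change, on the log2(FPKM + 1) scale used throughout, was 0.01 (SE 0.209, adjusted p = 0.982, limma), and its sign turned without sh-MFAP2 replicate 2 (-0.05) or control replicate 2 (-0.23). The SD was 0.187 FPKM for the sh-MFAP2 libraries and 0.670 FPKM for the controls (n = 2). Between 81.2% and 92.5% of tested genes were listed above MALAT1 in a given library.

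MALAT1 had 17 listed transcripts, of which 11 were above 0 in at least 1 library. Its unspliced transcript of 8708 bases, ENST00000534336, carried 83.7% to 88.9% of the length-weighted value, at 1.48 and 1.62 FPKM under sh-MFAP2 and 2.04 and 1.14 FPKM in control. A spliced transcript of 1519 bases, ENST00000508832, stood at 1.03 and 1.75 FPKM under sh-MFAP2 and 1.27 and 1.04 FPKM in control. Neither transcript separated the groups. The locus overlaps AP000769.2 on the other strand, and since it is not given in the sources used here whether reads were counted by strand, these 2 genes cannot be told apart.

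NEAT1 (65422774 to 65445540) was at 2.07 and 0.756 FPKM under sh-MFAP2 and at 0.536 and 0.449 FPKM in control. Both sh-MFAP2 libraries lay above both controls, but replicate 1 stood 4.61 times above the lowest library while replicate 2 lay closer to the controls than to replicate 1. Its mean of 0.952 FPKM missed the minimum of 1 FPKM for testing. With every gene above 0 tested instead, its log2 fold change was 0.64 with an unadjusted p of 0.134 and an adjusted p of 0.673 (limma), which did not pass.

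NEAT1 makes a short form and a long form, and the long form is the one that paraspeckles need. Whether the listed transcripts separate these forms was not tested. The unspliced ENST00000501122 (22743 bases) was at 1.98 and 0.665 FPKM under sh-MFAP2 and at 0.495 and 0.410 FPKM in control, and carried 87.9% to 95.7% of the length-weighted value. The spliced ENST00000499732 was at 0.641 and 1.06 FPKM under sh-MFAP2 against 0.362 and 0.313 FPKM in control. The order of the sh-MFAP2 replicates was therefore opposite in the unspliced transcript and in ENST00000499732, while both transcripts were above the controls in both libraries. The spliced ENST00000616315 (483 bases) followed the unspliced one, with 1.20 and 0.224 FPKM against 0.0318 and 0.0674 FPKM. ENST00000612303, named after its values were seen, lay on the other side, at 0.189 and 0.111 FPKM against 0.406 and 0.294 FPKM.

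SNHG8 and TUG1 have no unspliced transcript in GENCODE 29. SNHG8, which hosts SNORA24, lies on chromosome 4 from 118278709 to 118279823 on the plus strand. Its highest value was 1.43 times its lowest, the smallest such ratio among the 6, at 27.3 and 26.1 FPKM under sh-MFAP2 and 21.8 and 19.1 FPKM in control. Each sh-MFAP2 library was above each control, a pattern shared by 17.5% of all genes tested. The means were 26.7 ± 0.836 and 20.4 ± 1.91 FPKM (SD, n = 2), a ratio of 1.31. The log2 fold change was 0.37 (SE 0.121), with an unadjusted p of 0.0400 and an adjusted p of 0.396 (limma), so SNHG8 was not called, and 12.3% of all genes tested had an unadjusted p under 0.05.

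All 5 listed transcripts of SNHG8 are spliced. The leading ENST00000602414 was at 31.9 and 30.2 FPKM under sh-MFAP2 and at 25.1 and 22.9 FPKM in control, and carried 83.8% to 87.3% of the length-weighted value. ENST00000602819 was at 4.68, 4.55, 4.52 and 2.98 FPKM and ENST00000602573 at 2.10, 2.49, 1.38 and 1.00 FPKM in the same order of libraries. All 3 were higher in both sh-MFAP2 libraries than in both controls, and the smallest of their adjusted p-values was 0.661 (limma).

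TUG1, a lncRNA linked to chromatin regulation, varied more between replicates than SNHG8 did. It lies on chromosome 22 from 30969245 to 30979395 on the plus strand and overlaps AC004542.1 and AC004542.2 on the other strand. It was at 1.78 and 6.43 FPKM under sh-MFAP2 and at 7.73 and 10.6 FPKM in control. Each sh-MFAP2 library was below each control, as were 31.4% of all genes tested, yet sh-MFAP2 replicate 2 lay closer to control replicate 1 than to its own replicate. The log2 fold change was -1.15 (SE 0.546, adjusted p = 0.465, limma), and it moved to -0.44 without sh-MFAP2 replicate 1 and to -1.85 without sh-MFAP2 replicate 2.

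The low value of TUG1 in sh-MFAP2 replicate 1 lay mainly in its leading transcript. ENST00000519077, with 4 exons, was at 0.728 FPKM in that library, against 5.62 FPKM in sh-MFAP2 replicate 2 and 6.24 and 9.70 FPKM in control. Its share of the length-weighted value was 34.2% there and 67.4% to 76.7% in the other libraries. ENST00000540687 separated the groups more evenly, with 1.52 and 1.44 FPKM under sh-MFAP2 and 3.57 and 3.13 FPKM in control. Its log2 fold change of -0.81 (SE 0.184) had an unadjusted p of 0.0139 and an adjusted p of 0.503 (limma), and did not pass. ENST00000569149 was at 0.765 and 2.18 FPKM against 2.38 and 2.75 FPKM. None of the 22312 transcripts tested was called, and 1704 (7.64%) had an unadjusted p under 0.05.

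**Figure D2:**
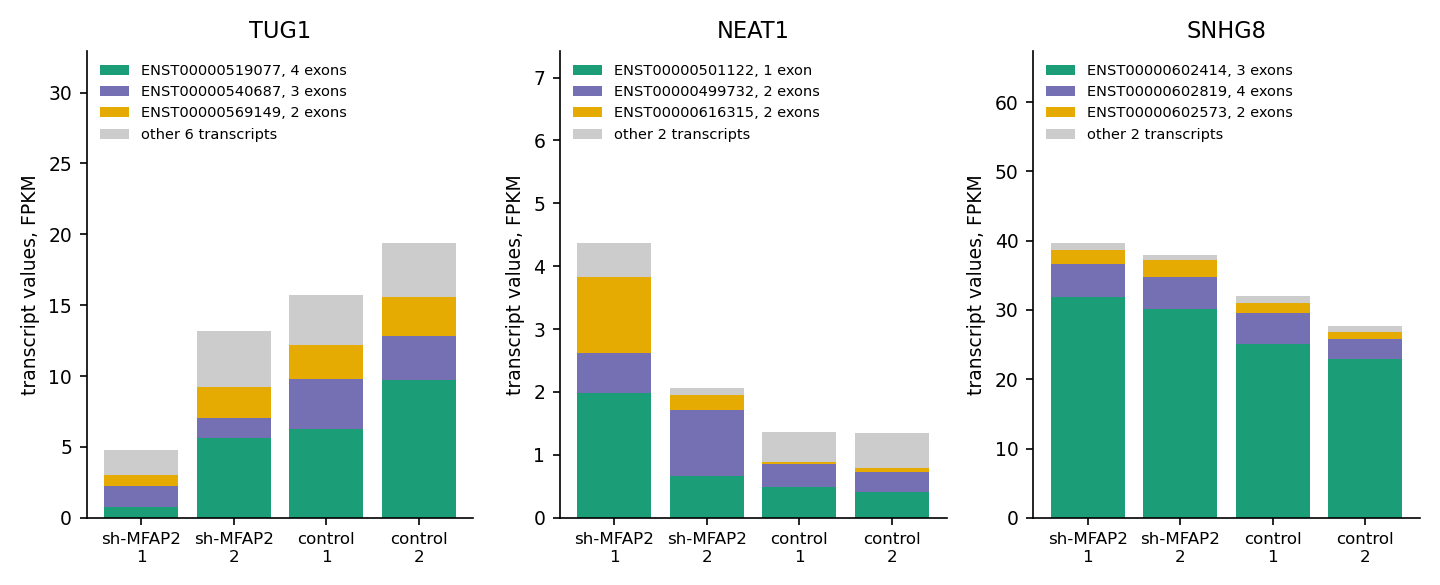
Transcript values of TUG1, NEAT1 and SNHG8 in FPKM, stacked by library (sh-MFAP2 replicates 1 and 2, control replicates 1 and 2), with the 3 leading transcripts in colour and the rest in grey. The leading transcript of TUG1 is at 0.728 FPKM in sh-MFAP2 replicate 1 against 5.62 to 9.70 FPKM elsewhere, and that of SNHG8 runs from 22.9 to 31.9 FPKM.

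The 4 lncRNAs found only by identifier are spliced genes that many dividing cells express, except H19, an imprinted RNA of fetal tissue. GAS5 (chromosome 1, 173863900 to 173868882, minus strand) was at 0.310 and 0.419 FPKM under sh-MFAP2 and 0.204 and 0.304 FPKM in control. It overlaps GAS5-AS1 and ZBTB37 on the other strand. SNHG1 (chromosome 11, 62851988 to 62855914, minus strand) was at 1.23 and 0.350 FPKM under sh-MFAP2 and 0.422 and 0.511 FPKM in control. SNHG5 (chromosome 6, 85660950 to 85678748, minus strand) was at 0.0266 and 0.0329 FPKM against 0.0412 and 0.0875 FPKM, and H19 (chromosome 11, 1995176 to 2001470, minus strand) was at most 0.00455 FPKM in any library.

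The table holds 2844 gene rows without a name, of which only 37 have a listed transcript and 5 reach a mean of 1 FPKM. GAS5 and SNHG1 each have over 20 transcripts in GENCODE 29 and none in the transcript table, so their values cannot be traced to transcripts. With no transcript length listed for the 4 lncRNAs, the unit of their values could not be checked. None of the 4 was tested, and no fold change is given for them.

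The comparison of 1-exon with spliced lncRNAs was extended to all lncRNA genes that averaged 1 FPKM or more. Of these 221 genes, 17 (7.69%) dropped below 10% of their own maximum in some library while at 5 FPKM or more in another, against 203 (2.06%) of the 9873 genes tested. Of 31 lncRNAs with a 1-exon leading transcript, 11 (35.5%) did so, compared with 6 of 187 (3.21%) with a spliced one. Genes that never reached 5 FPKM could not meet this definition but are counted in these shares and those below. Level and exon number were therefore not separated. LINC00657 and URB1-AS1 are among the 11, and without them the count was 9 of 29 (31.0%). A value of exactly 0 in at least 1 library was listed for 16 of the 31 and for 3 of the 187. Without LINC00657, chosen for such a listing, and URB1-AS1, it was 14 of 29.

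In 4 of the 11 1-exon lncRNAs both libraries of a group were near 0 and both of the other were not, and in none of the 6 spliced ones. Of the 4, 2 were LINC00657 and URB1-AS1, which leaves 2 of 29 1-exon lncRNAs, and over all genes tested 27 of the 203 followed the groups. All 11 had only 1 listed transcript, as LINC00657 and URB1-AS1 do, while MALAT1 and NEAT1, with several listed transcripts, stayed under 5 FPKM and could not meet the definition, and SNHG8 and TUG1 did not meet it. Across all genes tested, lncRNA or not, it was met by 65 of 138 genes (47.1%) with 1 exon and 1 transcript, 39 of 471 (8.28%) with a spliced single transcript and 92 of 9160 (1.00%) with several transcripts and a spliced leading one. At p under 0.01 and adjusted p under 0.05 (limma), 27 genes were called (0.273%), 15 higher under sh-MFAP2 (0.152%) and 12 lower (0.122%). Of the 27, 13 had 1 exon and 1 transcript, as had 138 of the 9873 genes tested. Both counts include LINC00657, chosen for its values, and URB1-AS1, so they are no test of these 2 genes. The number called was 0 without any 1 of the 4 libraries. Apart from LINC00657 and URB1-AS1, for which no test is given, none of the 219 lncRNAs was called, and 23 had an unadjusted p under 0.05 (limma).

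**Figure D3:**
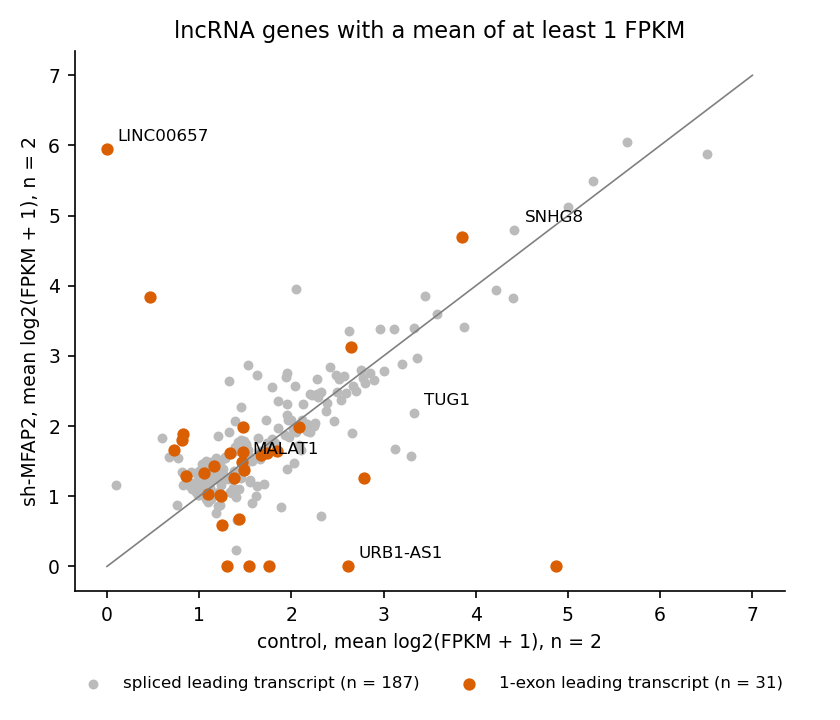
Mean log2(FPKM + 1) of 2 control libraries (horizontal) against that of 2 sh-MFAP2 libraries (vertical) for lncRNA genes that averaged 1 FPKM or more and have a known number of exons. Grey points are the 187 with a spliced leading transcript, orange points the 31 with a 1-exon one, and the line marks equal means; several orange points lie on or near an axis, with LINC00657 at the top left.

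LINC00657 shared its listing with other genes of the same structure. Including LINC00657, 6 genes were at 0 in both controls and at 5 FPKM or more in both sh-MFAP2 libraries, and all 6 had 1 exon and 1 transcript. The reverse listing held for 5 genes, URB1-AS1 among them, again all with 1 exon and 1 transcript. By Euclidean distance in log2(FPKM + 1) over the 4 libraries, the gene nearest to LINC00657 was RHOB, a small GTPase, at 52.4 and 63.4 FPKM against 0 and 0 (distance 0.118). The next 4 were the transcription factor SP5 (2.49), the glycosyltransferase B3GNT2 (2.70), the RNA helicase DDX28 (2.90) and TMEM223 (3.11), of which only DDX28 has 1 exon. SP5, TMEM223 and B3GNT2 were low but not at 0 in the controls, with 1.89 and 1.81, 0.387 and 0.681, and 0.178 and 0.403 FPKM.

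The lists of related genes held no call. At an unadjusted p under 0.05 (limma), as for 12.3% of all genes tested, stood 3 snoRNA hosts, 2 genes each of the LINC00657 partners and of the paraspeckle, speckle, snoRNP and decay lists, and 0 of the other lncRNAs, the H19 genes and the neighbours. The LINC00657 partners comprised 4 proteins. PUM2, a repressor of mRNAs carrying the Pumilio element, was at 7.62 and 7.001 FPKM under sh-MFAP2 against 9.20 and 10.0 FPKM in control, with a log2 fold change of -0.35 (SE 0.112, adjusted p = 0.394, limma). RBMX, a nuclear RNA-binding protein, was at 42.6 and 65.5 FPKM against 61.4 and 59.1 FPKM. KHDRBS1 (SAM68), reported as a recruiter of Pumilio to this RNA, was at 32.8 and 34.8 FPKM against 42.3 and 47.1 FPKM (log2 fold change -0.39, adjusted p = 0.394, limma). Of the 4, 3 were lower in each sh-MFAP2 library than in each control (31.4% of all genes tested), and the median log2 fold change of the 4 was -0.27, against -0.05 over all genes tested.

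Of 12 paraspeckle proteins, which assemble on NEAT1, none was called, 2 lay above and 5 below the controls in both sh-MFAP2 libraries, against 17.5% above and 31.4% below over all genes tested. Their median log2 fold change was -0.08, and -0.03 without sh-MFAP2 replicate 1, -0.17 without sh-MFAP2 replicate 2 but -0.05 without control replicate 2. HNRNPK, which takes part in processing of NEAT1, was at 149 and 160 FPKM against 190 and 199 FPKM, and NONO at 52.8 and 46.6 FPKM against 57.0 and 62.4 FPKM. HNRNPM overlapped between groups. SFPQ, named after its values were seen, stood on the other side of the controls from its partner NONO, at 62.3 and 50.7 FPKM against 40.6 and 40.8 FPKM (log2 fold change 0.46, adjusted p = 0.394, limma). Among 9 proteins of nuclear speckles and of MALAT1 processing, none was called, 4 lay below the controls (31.4% of all genes tested) and none above (17.5%). The median log2 fold change was -0.10, with -0.18 without sh-MFAP2 replicate 1 but -0.07 without control replicate 2. The splicing factor SRSF1 was at 48.5 and 50.3 FPKM against 62.1 and 79.3 FPKM, and SRSF2, SRSF5 and SRSF7 overlapped between groups.

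Of 25 snoRNA host lncRNAs, 12 were in rows without a name and 11 were tested, SNHG8 among them. None was called, 4 lay above the controls (17.5% of all genes tested) and 1 below (31.4%). That 1 was SNHG6, the only tested host from a row without a name, at 0.644 and 1.32 FPKM against 1.57 and 1.38 FPKM and named after its values were seen. The median log2 fold change was 0.20, and it moved to 0.35 without sh-MFAP2 replicate 1, 0.06 without sh-MFAP2 replicate 2 but 0.31 without control replicate 1. ZFAS1, the highest, was at 39.4 and 49.3 FPKM against 40.8 and 34.8 FPKM, C6orf48 at 22.2 and 24.3 FPKM against 18.96 and 18.5 FPKM, and SNHG15 at 10.0 and 8.96 FPKM against 6.68 and 6.92 FPKM. SNHG8, C6orf48 and SNHG15 thus had both sh-MFAP2 libraries above both controls, while ZFAS1 overlapped. The 8 core proteins that package snoRNAs gave 3 above (17.5% of all genes tested) and none below (31.4%), with a median of 0.19 (0.28 without sh-MFAP2 replicate 1) and none called. Among them FBL, the rRNA methyltransferase, was at 147 and 149 FPKM against 129 and 132 FPKM, and NOP56 at 86.7 and 88.3 FPKM against 72.0 and 66.2 FPKM (log2 fold change 0.34, adjusted p = 0.397, limma), while NOP10 and NHP2 overlapped.

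All 18 snoRNAs matched of the 21 sought in the introns of GAS5, SNHG1, SNHG5 and SNHG8 were listed at 0 in all 4 libraries. This does not show that they were absent from the cells, since such a listing can be a failed estimate. Many spliced host transcripts are substrates of nonsense-mediated decay, and of its 8 factors none was called and 2 lay below the controls (31.4% of all genes tested) and none above (17.5%). The median log2 fold change was -0.09, with -0.19 without sh-MFAP2 replicate 1 but -0.04 without control replicate 2. SMG5, UPF1 and UPF3A overlapped between groups. Of 5 structural RNAs that were matched, RMRP alone was tested and overlapped between groups, from 0.424 FPKM in control replicate 2 to 6.12 FPKM in control replicate 1, while RPPH1 and RN7SL2 were listed at 0 throughout.

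Of 28 other lncRNAs fixed by name, 10 were tested and none was called, 5 with a positive and 5 with a negative log2 fold change and a median of 0.01 (0.10 without sh-MFAP2 replicate 1, -0.19 without sh-MFAP2 replicate 2, 0.06 without control replicate 1). LINC00152, TP53TG1 and JPX, at 3.28 to 6.42 FPKM, each had their lowest value in sh-MFAP2 replicate 1 and their highest in sh-MFAP2 replicate 2, so the groups overlapped. MIR22HG was at 2.79 and 3.49 FPKM against 3.92 and 3.64 FPKM. Of 9 genes around H19, 4 were tested and none was called. Their median was -0.09, but -0.33 without sh-MFAP2 replicate 1, 0.12 without sh-MFAP2 replicate 2, -0.20 without control replicate 1 and -0.05 without control replicate 2. CTCF, the insulator protein of that locus, was at 17.4 and 14.3 FPKM against 19.2 and 21.3 FPKM, and IGF2R, IGF1R and GRB10 overlapped.

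Of 11 genes beside the lncRNAs, 9 were tested and none was called, 1 lay above and 3 below the controls (17.5% and 31.4% of all genes tested), and the median log2 fold change was 0.00, from -0.06 without control replicate 1 to 0.09 without control replicate 2. EPB41L1, on chromosome 20 near LINC00657, was at 12.4 and 12.003 FPKM under sh-MFAP2 and 11.4 and 12.8 FPKM in control. URB1, the neighbour of URB1-AS1, named after its values were seen, was at 5.54 and 5.82 FPKM against 4.94 and 6.50 FPKM. SLC3A2, beside SNHG1, was at 59.6 and 40.8 FPKM against 38.5 and 39.6 FPKM, and SYNCRIP, beside SNHG5, at 30.4 and 27.5 FPKM against 33.9 and 38.1 FPKM.

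**Figure D4:**
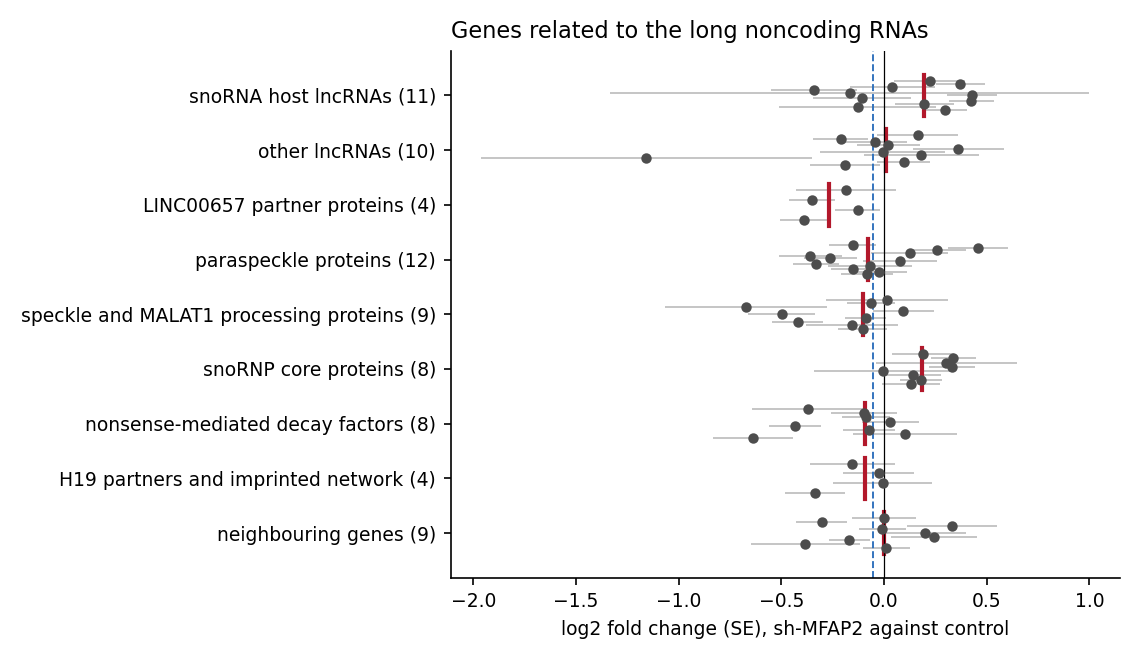
Log2 fold change of FPKM + 1, sh-MFAP2 against control, with its standard error, for each tested gene of 9 lists of related genes (number tested in brackets). Red bars are list medians and the dashed line is the median of all genes tested (-0.05); medians run from -0.27 for the LINC00657 partners to 0.20 for the snoRNA hosts, and none of the genes was called.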

How the data were processed

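For the 4 libraries, the authors deposited FPKM values per gene and per transcript, that is values scaled by length and library depth. The tables name no unit, and FPKM was inferred from steps of reads over length. The submitters' processing notes name hg38; the aligner, the program and the annotation are not given in the sources used here. Gene types, coordinates, exon numbers and sequences came from GENCODE 29 on GRCh38, in which 43715 of the 47251 gene rows (92.5%) were found. A listing at 0 in such tables can be a failed estimate.

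The 9873 genes that averaged 1 FPKM or more were fitted as log2(FPKM + 1) in limma 3.58.1 (lmFit, then eBayes with trend; R 4.3.3). P-values were adjusted over all genes by the Benjamini-Hochberg method, and genes were called at p under 0.01 and adjusted p under 0.05. Transcripts were fitted alike. The pseudocount of 1 understates changes of low genes. An exact two-sided permutation test of 2 against 2 libraries reaches no p below 0.333. Data were simulated with normal spread around each gene's mean, variances drawn from the fit, and no genes dropping to near 0 in some libraries. On these data the fit called 144 of 200 genes given a log2 change of 2, and 10 unchanged genes.

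The lncRNAs and lists were chosen with earlier results of these data known. Genes named were the 10 lncRNAs, their 3 leading transcripts, the 4 highest tested genes of each list, the 5 genes nearest to LINC00657, and MFAP2; others are marked, and some genes under this rule are not reported here. Alternatives were no filter, a mean of 5 FPKM, a pseudocount of 0.1, quantile and median-of-ratios scaling, a replicate block, no trend, transcript sums and each library left out in turn. Python 3.11.15 was used with pandas 2.3.3 and numpy 2.4.6, and figures were drawn in matplotlib 3.10.9.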

Additional observations from a re-analysis of the deposited data

How the results depend on the processing

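Under the 12 alternatives the number of genes called moved from 27 to 6 with no filter, to 9 at a mean of at least 5 FPKM and to 0 with the replicate block (722 at an unadjusted p under 0.05), and it was 0 to 0 when any library was left out (555 to 2166 at an unadjusted p under 0.05); otherwise it was 22 to 28. No transcript was called except 5 with a pseudocount of 0.1, and leaving out libraries, a check on transcripts added after the data were seen, gave 0 to 0. The log2 fold change of MALAT1 reversed to -0.0534 without sh-MFAP2 replicate 2 and to -0.231 without control replicate 2, and ran from -0.231 to 0.260 with a library left out. Leaving out libraries gave 0.281 to 0.463 for SNHG8 and -1.85 to -0.435 for TUG1, where the lone library of a group is assumed to vary like the other group. With all libraries kept, the alternatives gave adjusted p of 0.375 to 0.614 for SNHG8 and 0.440 to 0.665 for TUG1 (limma). NEAT1 was at 0.784 by the sum of transcripts. The difference of LINC00657 was 56.5 to 65.5 FPKM without 1 library, and that of URB1-AS1 -5.13 to -5.09 FPKM, moving to -4.93 with quantile and -4.97 with median-of-ratios scaling. List medians with a library left out are given beside each list; that of the snoRNA hosts also went to 0.000269 with no filter and 0.0955 by transcript sums, that of the paraspeckle proteins to -0.00574 with median of ratios, -0.0489 with quantile scaling and -0.153 by transcript sums, and that of the H19 genes to -0.245 at a mean of at least 5 FPKM and -0.0314 with quantile scaling. RMRP, the 1 structural RNA tested, ran from -1.24 to 1.08 with a library left out. The cause of these changes was not tested. Same-numbered libraries did not deviate together (correlation -0.0572), so the numbers were not taken as pairs; with the replicate block MALAT1, SNHG8 and TUG1 were not called either. Depth is inferred, which limits what a listing at 0 can show.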

Other observations

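Some other lncRNAs lay between near 0 and over 5 FPKM, and are given as values chosen after they were seen. HEIH, a 1-exon lncRNA, was at 12.8 and 14.002 FPKM under sh-MFAP2 and at 0 and 0.922 FPKM in control, and CH507-513H4.6, also with 1 exon, was at 0 in both sh-MFAP2 libraries and at 75.0 and 10.2 FPKM in control replicates 1 and 2, so both separated the groups. The groups overlapped in those that follow. RP11-420L9.5 was at 5.75 FPKM in sh-MFAP2 replicate 2 and 6.81 FPKM in control replicate 1 and listed at 0 in the other libraries. ABALON was at 5.93 FPKM and 8.78 FPKM in these same libraries and at 0.408 and 0.325 FPKM in the others. Among spliced lncRNAs, RP11-518L10.5 was at 14.4 to 14.8 FPKM in 3 libraries and at 0.0794 FPKM in control replicate 2, and the snoRNA host SNHG3 was at 0.731 and 11.4 FPKM under sh-MFAP2 and at 7.63 and 2.14 FPKM in control.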
